A study of Mus musculus with 7 samples.

Results

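The 40 genes described here mark the endothelium of brain vessels. They were taken by symbol from the gene tables, where all 40 were found among 46333 genes, and all 40 passed the filter on low counts that left 21542 genes for testing. They were chosen by name as known endothelial genes, with no threshold on these values, but earlier results of these data were known when they were chosen. They were grouped by what their products do, as 7 genes of junctions and adhesion, 6 receptors and coreceptors, 9 transcription factors, 9 surface glycoproteins and anchored proteins, and 9 genes of secreted, matrix and signaling proteins.

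The series compared RNA from neurons of il4ra fl/fl.Syn cre mice, with 3 cre+ libraries (SynCre + IL-4R fl/fl) and 4 cre- libraries (SynCre - IL-4R fl/fl). All 7 mice carried the floxed il4ra alleles, so the groups differed in the presence of Syn cre, a Cre recombinase under the neuronal synapsin 1 promoter. The study's methods describe adult female animals and give littermates as the replicates. Whole brains were dissociated and passed over magnets with antibodies to astrocytes, oligodendrocytes and microglia, and the cells that flowed through were used as neurons. The depletion names no endothelial antigen. Per the methods the isolates were then checked by flow cytometry, with CD31 among the antigens stained, and were found to be mostly neurons.

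Brain endothelial cells line the vessels as a single layer. Claudins and occludin seal the cells to each other, the adherens protein VE-cadherin holds them together, and few vesicles cross them, so that transporters decide what passes from the blood. Receptors for VEGF and angiopoietins keep the cells alive and quiet, ETS and SOXF transcription factors hold endothelial identity, and Wnt signaling through beta-catenin, with Lef1, Foxf2 and Foxq1 among the factors linked to it, adds the features of the barrier.

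Libraries held 68213223 to 94376841 counts. Counts of the 40 genes made up 4.03%, 2.66% and 2.78% of all counts in the cre+ libraries and 2.03%, 2.07%, 2.17% and 2.80% in the cre- libraries. Here and throughout, values per library follow the replicate numbers of the labels, 1 to 3 for cre+ and 1 to 4 for cre-. Il4ra, the targeted gene, ranged from 24.4 to 29.5 counts scaled to library size (CPM) in cre+ and from 20.03 to 29.6 CPM in cre- libraries, but a count over the whole gene hardly reflects the loss of a few exons and does not check the genotype labels. The libraries are labelled as neurons, and the 11 neuronal marker genes examined were present in all of them. Their median level per exon length was 24.4 CPM per kb in cre- libraries, below the 47.9 CPM per kb of the 40 endothelial genes. Such levels do not give the share of each kind of cell, and that share was not estimated.

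In each of the 5 groups of genes all fold changes were positive. By summed level the groups of libraries did not overlap for the receptors, the transcription factors and the surface proteins. For the junction genes cre- replicate 4, at 4202 CPM, reached above cre+ replicates 2 and 3 (cre+ at 7128, 3970 and 4115 CPM). Cldn5 alone made up 2113 CPM of this sum in cre- replicate 4 and 1636 CPM in cre+ replicate 2. For the secreted, matrix and signaling genes cre- replicate 4, at 5173 CPM, reached above cre+ replicate 2 (cre+ at 7552, 4901 and 5776 CPM). The log2 fold change, cre+ minus cre-, was positive for 40 of 40 genes, with a median of 0.59 and a range from 0.29 for Plvap to 0.76 for Flt1, while over all 21542 genes the median was -0.04 and 46.0% were positive. At an adjusted p of 0.05, edgeR called 0 of the 40 genes in either direction, and it called 0% of all genes higher and 0% lower. At an unadjusted p under 0.05 edgeR gave 31 of 40 genes as higher and 0 as lower, where it gave 10.2% of all genes as higher and 9.75% as lower. limma-voom called 0 genes. DESeq2, the tool the study used, called 23 of the 40 higher and 0 lower, against 5.08% of all genes higher and 4.15% lower. All cre+ libraries lay above all cre- libraries for 22 of the 40 genes and below for 0, against 8.94% and 9.72% of all genes. These levels are shares of each library. In these bulk samples more endothelial cells, more endothelial RNA per cell and less RNA from other cells cannot be told apart.

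The summed level of the 40 genes was 42961, 27339 and 29196 CPM (cre+) against 20698, 19279.6, 20572 and 27016 CPM (cre-). The groups did not overlap, but cre- replicate 4 came within reach of cre+ replicate 2, and cre+ replicate 1 stood well above both other cre+ libraries. In cre+ replicate 1 the median gene of the 40 was 1.48 times its mean in the other cre+ libraries, where the median over all genes whose mean CPM reached 1 was 0.993. In cre- replicate 4 it was 1.35 times its mean in the other cre- libraries, where the median over all genes was 0.990. Without cre+ replicate 1 the median log2 fold change was 0.38 and DESeq2 called 6 of the 40 genes higher, and 591 over all genes. Without cre- replicate 4 the median was 0.71 and DESeq2 called 30 of the 40 genes higher, and 1163 over all genes. With both left out, a comparison added after the data were seen, it was 0.51 and DESeq2 called 27 of the 40 genes higher and 0 lower. In that fit DESeq2 called 948 higher and 897 lower over all genes. The DESeq2 count among the 40 genes was also 13, 6 and 8 without cre- replicate 1, 2 or 3, and 23 and 20 without cre+ replicate 2 or 3. In the same order, calls higher over all genes numbered 935, 407, 545, 645 and 940, where they numbered 1095 with all libraries.

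**Figure D1:**
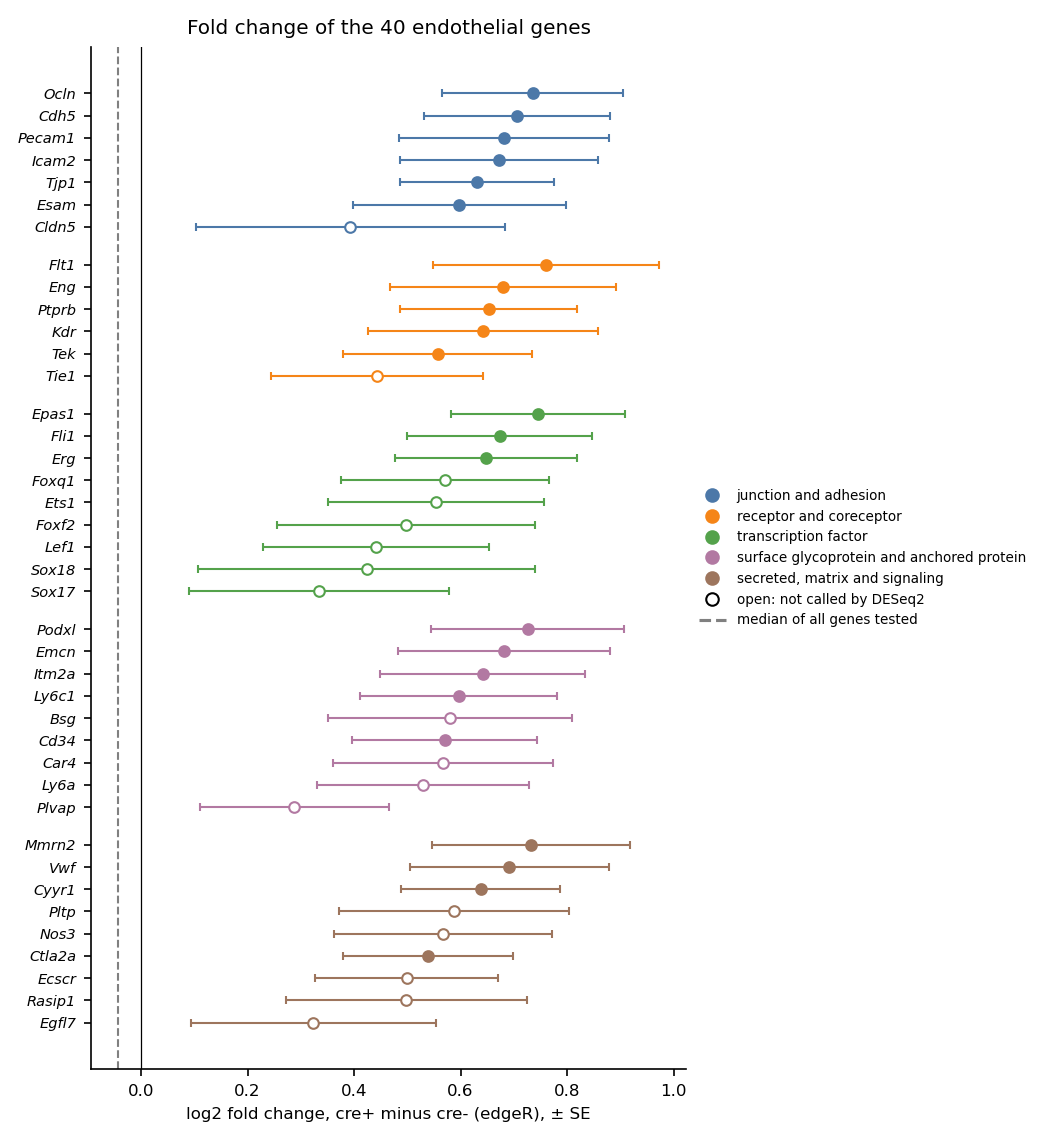
Fold change of the 40 endothelial genes. Points are log2 fold changes of cre+ over cre- libraries from edgeR (horizontal axis), bars are SE, colors mark the groups of genes, filled points are genes called by DESeq2, and the dashed line is the median of all genes tested. All 40 points lie right of 0, from 0.29 for Plvap to 0.76 for Flt1, and Cldn5, Sox17, Sox18, Egfl7 and Plvap sit at or near the low end of their groups.

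The plot of fold changes shows the 40 genes ordered within their groups. The SE of the single fold changes ran from 0.14 for Tjp1 to 0.32 for Sox18. The 40 genes share their libraries, so these SE are not the errors of differences between genes.

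Of the 7 junction and adhesion genes DESeq2 called 6 higher and 0 lower, and the median log2 fold change was 0.67. Ocln, which encodes occludin of the tight junction, was at 293, 237 and 206 CPM (cre+) against 143, 137, 123 and 187 CPM (cre-). The groups did not overlap, and the log2 fold change was 0.74 ± 0.17 (adjusted p = 0.0963 in edgeR and 0.00501 in DESeq2). Tjp1, the scaffold ZO-1 that ties tight junctions to actin and is also found in other cell types, was at 535, 515 and 442 CPM (cre+) against 294, 298, 292 and 400.3 CPM (cre-). Here cre+ replicate 1 was close to cre+ replicate 2, and the lowest cre+ library still lay above cre- replicate 4. Its log2 fold change was 0.63 ± 0.14 (adjusted p = 0.0963 in edgeR and 0.00359 in DESeq2).

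Cdh5, VE-cadherin of the adherens junction, was at 704, 460.3 and 512 CPM (cre+) against 349.6, 288, 326 and 407 CPM (cre-). All cre+ libraries were above all cre- libraries, with a log2 fold change of 0.71 ± 0.17 (adjusted p = 0.0999 in edgeR and 0.00676 in DESeq2). Pecam1, the adhesion molecule CD31, was at 915, 624 and 616 CPM (cre+) against 428, 385, 397 and 582 CPM (cre-). Cre- replicate 4 reached 582 CPM and the lowest cre+ library 616 CPM, so the groups stood apart by a narrow margin, and the log2 fold change was 0.68 ± 0.20 (adjusted p = 0.125 in edgeR and 0.0201 in DESeq2). Icam2, an adhesion molecule of resting endothelium, had 0.67 ± 0.19, and Esam, a junctional adhesion molecule, had 0.60 ± 0.20. Both were called by DESeq2 although cre- replicate 4 overlapped the cre+ libraries.

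Cldn5, the main claudin of brain endothelium, was unlike the other junction genes. It was at 3848, 1636 and 1783 CPM (cre+) against 1869, 1647, 1752 and 2113 CPM (cre-). Cre+ replicate 1 was above every other library by a wide margin, while cre+ replicate 2 was below all cre- libraries and cre+ replicate 3 was among them. The means were 2422 ± 1237 CPM (cre+, SD, n = 3) against 1845 ± 200.5 CPM (cre-, SD, n = 4), and the log2 fold change was 0.39 ± 0.29 (adjusted p = 0.494 in edgeR and 0.365 in DESeq2). Without cre+ replicate 1 it was -0.12, where that of Ocln was 0.58 and that of Tjp1 was 0.57.

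**Figure D2:**
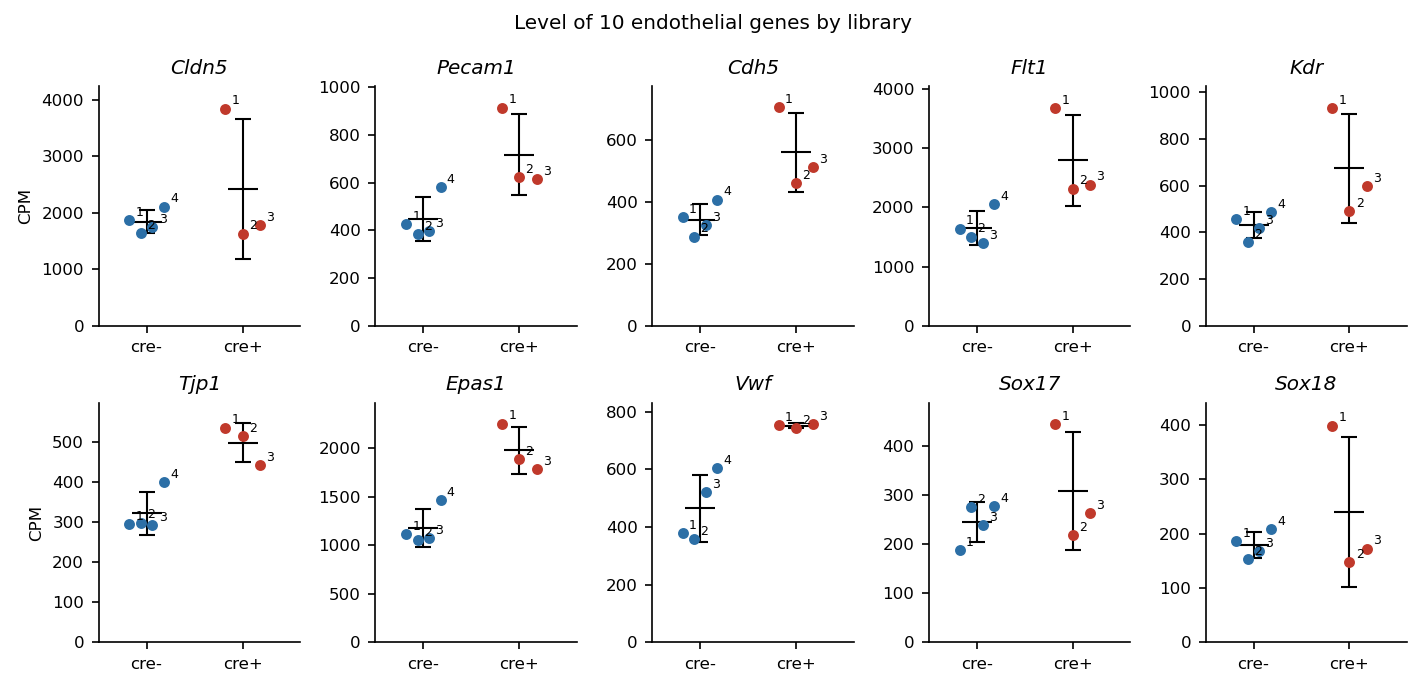
Level of 10 endothelial genes in each library. Points are CPM of single libraries (vertical axis, from 0) with their replicate numbers, bars are means ± SD of 4 cre- and 3 cre+ libraries. Vwf, Tjp1 and Epas1 are high in all cre+ libraries, while for Cldn5, Sox17 and Sox18 cre+ replicate 1 lies far above cre+ replicates 2 and 3, which sit at the level of the cre- libraries.

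The plot of levels by library sets these kinds of genes side by side. Sox17, Sox18 and Vwf were added to it after their values were seen.

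Of the 6 receptors and coreceptors DESeq2 called 5 higher and 0 lower, with a median log2 fold change of 0.65. Flt1, the VEGF receptor 1, which binds VEGF tightly and signals weakly, was at 3677, 2316 and 2384 CPM (cre+) against 1641, 1507, 1391 and 2052 CPM (cre-). The groups did not overlap, and its log2 fold change of 0.76 ± 0.21 (adjusted p = 0.117 in edgeR and 0.00968 in DESeq2) was the highest of the 40. Kdr, the VEGF receptor 2 that carries most of the VEGF signal, was at 934, 490.0 and 597 CPM (cre+) against 459, 360.3, 419 and 489 CPM (cre-). Cre+ replicate 2 lay only just above cre- replicate 4, and the log2 fold change was 0.64 ± 0.22 (adjusted p = 0.166 in edgeR and 0.0458 in DESeq2).

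Ptprb, the phosphatase VE-PTP that acts on Tek and VE-cadherin, was at 1391, 1216 and 1191 CPM (cre+) against 734, 727, 714 and 1046 CPM (cre-). The cre+ libraries were close to each other and above all cre- libraries, with a log2 fold change of 0.65 ± 0.17 (adjusted p = 0.102 in edgeR and 0.00561 in DESeq2). Eng, endoglin, a coreceptor for ligands of the TGF-beta family, had 0.68 ± 0.21. The angiopoietin receptor Tek had 0.56 ± 0.18, and its partner Tie1 had 0.44 ± 0.20 and was the single receptor without a DESeq2 call (adjusted p = 0.145).

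Of the 9 transcription factors DESeq2 called 3 higher and 0 lower, and the median log2 fold change was 0.55. Epas1, the hypoxia factor HIF-2alpha, was at 2250.3, 1889.9 and 1787 CPM (cre+) against 1116, 1056, 1077 and 1465 CPM (cre-). All cre+ libraries were above all cre- libraries, the log2 fold change was 0.75 ± 0.16, and the adjusted p of 0.0939 in edgeR was the lowest of the 40 genes and equal to the lowest of all genes tested (DESeq2: 0.000692). Fli1, an ETS factor, was at 139, 100.4 and 111 CPM (cre+) against 60.98, 68.6, 68.2 and 95.7 CPM (cre-). The groups did not overlap, though cre- replicate 4 came near cre+ replicate 2, and the log2 fold change was 0.67 ± 0.17 (adjusted p = 0.103 in edgeR and 0.0142 in DESeq2). Erg, the ETS factor closest to Fli1, was also called, with 0.65 ± 0.17 (DESeq2 adjusted p = 0.0161), and Ets1, another of that family, was not, with 0.55 ± 0.20 (DESeq2 adjusted p = 0.0781).

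The factors linked to the barrier and to Wnt signaling were not called by DESeq2 with all libraries, though Foxq1 was called with cre+ replicate 2 or cre- replicate 4 left out. The forkhead factors Foxq1 and Foxf2 had log2 fold changes of 0.57 ± 0.20 and 0.50 ± 0.24, and Lef1, which acts with beta-catenin on Wnt targets, had 0.44 ± 0.21, with DESeq2 adjusted p from 0.0632 to 0.191. The SOXF factors Sox17 and Sox18, which act in arterial and lymphatic fate, were the lowest of the factors, with 0.33 ± 0.24 and 0.42 ± 0.32. Sox18 was at 399, 148 and 173 CPM (cre+) against 186, 153, 168 and 208 CPM (cre-). As with Cldn5, cre+ replicate 1 alone was high, cre+ replicate 2 was below all cre- libraries and cre+ replicate 3 was among them. Sox17 was at 446, 218 and 264 CPM (cre+) against 189, 276, 239 and 278 CPM (cre-), with cre+ replicate 1 again far above the others, which lay among the cre- libraries. Without cre+ replicate 1 the log2 fold changes were -0.03 for Sox17 and -0.16 for Sox18.

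Of the 9 surface proteins DESeq2 called 5 higher and 0 lower, with a median log2 fold change of 0.58. Podxl, podocalyxin, a sialomucin of the luminal face, was at 1232, 806 and 967 CPM (cre+) against 634, 504, 556 and 728 CPM (cre-). The groups did not overlap, and the log2 fold change was 0.73 ± 0.18 (adjusted p = 0.101 in edgeR and 0.00563 in DESeq2). Emcn, endomucin, a sialomucin of capillaries and veins, was at 289.8, 170.1 and 193 CPM (cre+) against 124, 119, 130.4 and 169.5 CPM (cre-). Cre+ replicate 2 exceeded cre- replicate 4 by under 1 CPM, and the log2 fold change was 0.68 ± 0.20 (adjusted p = 0.128 in edgeR and 0.0257 in DESeq2). The third sialomucin, Cd34, had 0.57 ± 0.17 (DESeq2 adjusted p = 0.0321).

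The membrane protein Itm2a had 0.64 ± 0.19 and the anchored protein Ly6c1 had 0.60 ± 0.18, both called by DESeq2, while Ly6a, known as Sca-1, had 0.53 ± 0.20 and was not. Ly6a and Ly6c1 belong to a family of similar genes in 1 cluster on chromosome 15, and reads may be shared within it. The carbonic anhydrase Car4 had 0.57 ± 0.21 and basigin, Bsg, a partner of lactate transporters found in many cell types, had 0.58 ± 0.23, with DESeq2 adjusted p of 0.0708 and 0.0633. Plvap forms the diaphragms of vesicles and fenestrae and is low in barrier endothelium. It was at 7.78, 7.74 and 7.36 CPM (cre+) against 5.60, 6.04, 7.01 and 6.34 CPM (cre-), values chosen for display after they were seen. The cre+ libraries lay within a narrow band just above the cre- libraries, and the log2 fold change of 0.29 ± 0.18 (adjusted p = 0.405 in edgeR and 0.195 in DESeq2) was the lowest of the 40.

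Of the 9 secreted, matrix and signaling genes DESeq2 called 4 higher and 0 lower, with a median log2 fold change of 0.57. Cyyr1, a gene of little known function, was at 184, 139 and 136 CPM (cre+) against 101, 91.9, 84.2 and 117 CPM (cre-). The groups did not overlap, and the log2 fold change was 0.64 ± 0.15 (adjusted p = 0.0978 in edgeR and 0.00776 in DESeq2). Mmrn2, a matrix protein of endothelium, was at 254, 155 and 193 CPM (cre+) against 125, 95.3, 120.4 and 143 CPM (cre-). All cre+ libraries were above all cre- libraries, with a log2 fold change of 0.73 ± 0.19 (adjusted p = 0.102 in edgeR and 0.0103 in DESeq2). Vwf, the von Willebrand factor of platelet adhesion, was at 753, 742 and 758 CPM (cre+) against 379.9, 357, 520.2 and 603 CPM (cre-), values chosen for display after they were seen. The cre+ libraries were nearly equal, at 751 ± 8.27 CPM (cre+, SD, n = 3) against 465 ± 117 CPM (cre-, SD, n = 4), and cre+ replicate 1 did not stand out. Its log2 fold change was 0.69 ± 0.19 with all libraries and 0.68 without cre+ replicate 1 (DESeq2 adjusted p = 0.0108 with all).

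Ctla2a, a protease inhibitor with a close copy in the genome, was the fourth of these genes called by DESeq2, with 0.54 ± 0.16. The lipid transfer protein Pltp had 0.59 ± 0.22, the endothelial nitric oxide synthase Nos3 had 0.57 ± 0.20, the surface regulator Ecscr had 0.50 ± 0.17, and Rasip1, a Ras-interacting protein needed for vessel lumens, had 0.50 ± 0.23. The secreted factor Egfl7 had 0.32 ± 0.23. DESeq2 adjusted p of these 5 ran from 0.0506 for Pltp to 0.378 for Egfl7, and without cre+ replicate 1 the log2 fold change of Egfl7 was 0.003. An annotated gene overlaps 28 of the 40 on the opposite strand, for example Sncg at Mmrn2, Fpgs at Eng, Ctsa at Pltp, Gtpbp3 at Plvap and Agpat2 at Egfl7, and without a stated strand setting their reads cannot be told apart.

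DESeq2 called 5 of the 40 genes with each of the 7 libraries left out in turn. These were Tjp1 and Cdh5 of the junctions, the phosphatase Ptprb, the factor Epas1 and the sialomucin Podxl. At the other end, 10 genes were called in none of these fits, namely Cldn5, Tie1, Sox17, Sox18, Lef1, Foxf2, Plvap, Egfl7, Rasip1 and Ecscr. How many of all genes were called in each or in none of these fits was not counted. Calls higher over all genes ran from 407 to 1163 in these fits, against 1095 with all libraries. Without cre+ replicate 1, 37 of 40 log2 fold changes were positive, and with cre+ replicate 1 and cre- replicate 4 both left out 38 were, the exceptions being Cldn5 (-0.04) and Sox18 (-0.08).

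The ratio of cre+ replicate 1 to the mean of the other cre+ libraries differed widely among the 40 genes. It was 1.004 for Vwf, 1.03 for Plvap and 1.12 for Tjp1, and it reached 2.25 for Cldn5 and 2.48 for Sox18. In cre- replicate 4 the ratio to the mean of the other cre- libraries ran from 1.02 for Plvap to 1.53 for Itm2a, with 1.20 for Cldn5. Thus the 40 genes did not scale alike in cre+ replicate 1.

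These differences ran along the length and base composition of the transcripts. Over the 40 genes the log2 fold change went with transcript length (Spearman rho 0.56) and against GC content (rho -0.40), and the ratio of cre+ replicate 1 to the other cre+ libraries went with GC content (rho 0.48) and against length (rho -0.29). Over 15146 genes with a reference transcript and a mean of at least 1 CPM, the same 4 correlations were -0.01, -0.07, 0.07 and -0.13. Fold changes of the 40 genes without cre+ replicate 1 had a rho of 0.55 with length and -0.56 with GC content, so the relation was also present without that library. The points share libraries, and GC content and length were themselves related over the 40 genes (rho -0.25), so these are descriptions. Of the 20 genes with the lower GC content (41.6% to 52.0%) DESeq2 called 16, with a median log2 fold change of 0.64, or 0.45 without cre+ replicate 1. Of the 20 with the higher GC content (52.3% to 63.5%) it called 7, with 0.57, or 0.29 without cre+ replicate 1. Over all genes tested, not split by GC content, it called 5.08% higher. The part of GC content and length in these fold changes was not tested.

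**Figure D3:**
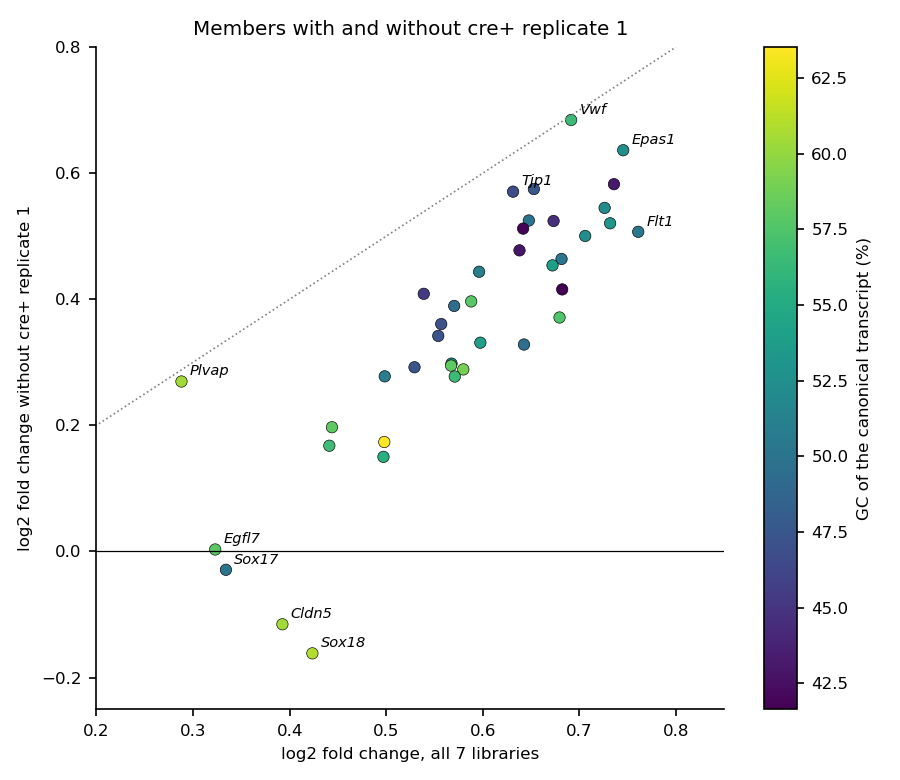
Log2 fold change of the 40 endothelial genes with all 7 libraries (horizontal axis) and without cre+ replicate 1 (vertical axis), colored by the GC content of the canonical transcript in percent. The dotted line marks equal values. Vwf, Plvap and Tjp1 lie near the line, and Cldn5, Sox18 and Sox17 fall below 0 without that library.

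The plot with and without cre+ replicate 1 shows the other genes between these extremes, below the line but above 0.

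Per exon length the 40 genes covered a wide range of levels. In cre- libraries Bsg had 1397 and Cldn5 1303 CPM per kb, followed by Pltp with 378, Ly6c1 with 212, Epas1 with 209 and Itm2a with 168. At the low end were Icam2 with 7.43 and Plvap with 1.63 CPM per kb, so Plvap, the marker of fenestrated vessels, was the lowest of the 40. Bsg and Cldn5 differed per kb by less than the spread between libraries, and the level of Bsg before division by length was 5797 ± 1808 CPM (cre+, SD, n = 3) against 3879 ± 591 CPM (cre-, SD, n = 4).

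**Figure D4:**
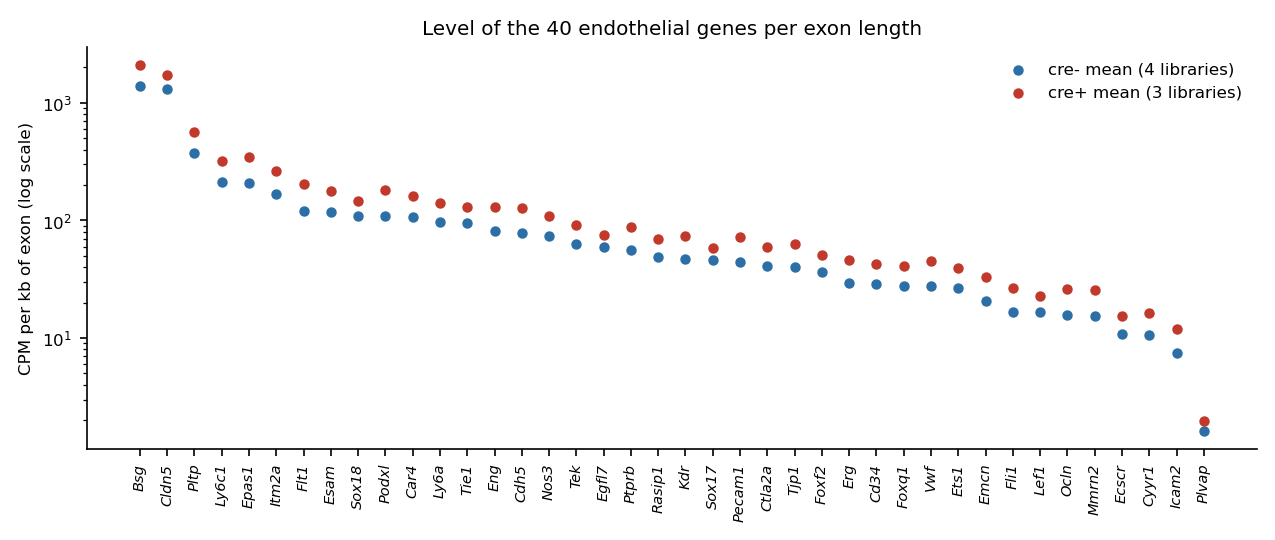
Level of the 40 endothelial genes per exon length. Points are group means in CPM per kb of exon (vertical axis, log scale) for 4 cre- and 3 cre+ libraries, ordered by the cre- mean. Levels run from 1397 CPM per kb for Bsg to 1.63 for Plvap in cre- libraries, and the cre+ mean is above the cre- mean for each gene.

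The plot of levels per length shows an offset of the same direction, but not of the same size, at high and low levels.

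The 40 genes were also set against the blood-brain barrier transporters, which endothelial cells express as well. The mean log2 CPM of 14 transporters was 0.65 higher in cre+ than in cre- libraries. Relative to it the differences of the 40 genes ran from -0.37 for Sox17, Egfl7 and Cldn5 to 0.10 for Epas1. Sox18 and Plvap were at -0.36, and Flt1 was at 0.09. In cre+ libraries the SD of this relative level over 3 libraries was 0.53 for Sox18 and 0.44 for Cldn5, more than their shift, and 0.09 for Epas1 and 0.03 for Cyyr1.

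The promoters of 3 of these genes are given as the 250 bases before the start of the canonical transcript, 5′ to 3′ on the strand of the gene, read from the GRCm39 genome. They are shown for Flt1, with the highest log2 fold change, for Tie1, the receptor without a call, and for Cldn5, which was high in 1 cre+ library. Capitals mark matches to AGGAAG or CGGAAG, 2 forms of the ETS core, on either strand. Flt1 lies at chr5:147662822-147663071 on the minus strand, Tie1 at chr4:118347259-118347508 on the minus strand and Cldn5 at chr16:18595347-18595596 on the plus strand.
Flt1: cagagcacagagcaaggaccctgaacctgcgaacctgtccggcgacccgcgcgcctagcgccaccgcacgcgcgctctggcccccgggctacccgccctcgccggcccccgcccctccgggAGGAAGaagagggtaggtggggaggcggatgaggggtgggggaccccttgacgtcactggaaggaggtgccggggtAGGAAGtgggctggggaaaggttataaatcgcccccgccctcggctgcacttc
Tie1: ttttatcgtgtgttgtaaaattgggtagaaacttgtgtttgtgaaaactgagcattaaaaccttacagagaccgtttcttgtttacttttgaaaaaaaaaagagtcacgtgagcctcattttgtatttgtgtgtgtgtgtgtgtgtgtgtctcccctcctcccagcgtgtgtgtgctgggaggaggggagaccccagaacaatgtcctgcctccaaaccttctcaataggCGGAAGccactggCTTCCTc
Cldn5: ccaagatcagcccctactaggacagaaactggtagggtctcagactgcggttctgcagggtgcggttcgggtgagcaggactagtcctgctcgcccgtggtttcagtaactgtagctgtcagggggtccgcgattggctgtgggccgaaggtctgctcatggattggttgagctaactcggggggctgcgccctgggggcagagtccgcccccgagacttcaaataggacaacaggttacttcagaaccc
Flt1 and Tie1 held 2 matches each and Cldn5 held 0 in these bases.

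Over the same window AGGAAG on either strand was found in 19 of 40 promoters (47.5%) and in 28.9% of 21770 promoters of all genes with such a transcript, and CGGAAG in 2 (5.0%) against 14.3%. AACAAT, a core that SOX factors bind, was in 8 (20.0%) against 9.67%. CTTTGA, a TCF/LEF core, was in 5 (12.5%) against 14.1%, and TAAACA, a forkhead core, in 3 (7.5%) against 11.4%. Both ETS forms share GGAAG. The forkhead core ends in AACA and the SOX core begins with it, so a single stretch can match both. The median GC content of the promoters was 59.6% for the 40 genes and 53.2% for all. An ETS match was present in 11 of the 23 genes called by DESeq2 and in 9 of the 17 others, and the median log2 fold change was 0.60 with and 0.59 without a match. A match in letters is a description of the sequence and not a binding site.

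Other genes of the same cells and pathways were counted in the same way. Of 14 barrier transporters DESeq2 called 8 higher and 0 lower, with a median log2 fold change of 0.60, led by the glucose transporter Slc2a1 (1.003 ± 0.20), the efflux pump Abcb1a (0.85 ± 0.18) and the lipid transporter Mfsd2a (1.04 ± 0.22). In the Wnt pathway of the barrier it called 10 of 18 higher and 0 lower, with a median of 0.58. The coreceptors Lrp5 and Lrp6 had 0.66 ± 0.11 and 0.58 ± 0.11, and Nkd1, a feedback inhibitor, had 0.80 ± 0.17. The values were negative for 2 of the 18, the ligands Wnt7a (-0.38 ± 0.13), with all cre+ libraries below all cre- libraries, and Wnt7b (-0.96 ± 0.64), both named after their values were seen. The factor Lef1 of that pathway, by contrast, had no call, though whether it differed from these genes was not tested.

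For the VEGF and angiopoietin system DESeq2 called 3 of 10 genes higher and 0 lower, with a median of 0.42. These were the coreceptor Nrp1 (0.70 ± 0.14), the receptor Flt4 (0.72 ± 0.14) and the ligand Angpt2 (1.11 ± 0.24), which endothelium stores and releases. Negative values were found for 3 of the 10, the ligands Vegfa (-0.39 ± 0.17), Vegfd (-0.48 ± 0.41) and Angpt1 (-0.04 ± 0.33), named after their values were seen, and Vegfa had an unadjusted p of 0.0436 in edgeR. In the Notch pathway it called 3 of 11 higher and 0 lower, the ligands Jag1 (0.53 ± 0.14) and Jag2 (0.59 ± 0.17) and the receptor Notch4 (0.78 ± 0.21). In the TGF-beta and BMP pathway it called 6 of 14 higher and 0 lower, with the receptors Bmpr2 (0.61 ± 0.11) and Acvrl1 (0.77 ± 0.18) and the ligand Tgfb1 (0.69 ± 0.17) among them.

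Among 18 junction partners DESeq2 called 6 higher and 1 lower. Jam2 (0.60 ± 0.13) and F11r (0.61 ± 0.15) encode junctional adhesion molecules and Ctnna1 (0.65 ± 0.14) alpha-catenin. The lower gene, named after its value was seen, was Magi1 (-0.33 ± 0.10), a scaffold also found in neurons, and 3 of the 18 values were negative. Of 12 other endothelial transcription factors 4 were called higher and 0 lower, with Sox7 (0.76 ± 0.18), the third SOXF factor, Tbx3 (0.78 ± 0.21) and Elk3 (0.58 ± 0.16) first. Of 10 genes of the response to flow and inflammation 6 were called higher and 0 lower, with Thbd (0.80 ± 0.14), Klf4 (1.07 ± 0.23) and Vcam1 (0.73 ± 0.16) first.

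By vessel segment DESeq2 called 5 of 11 arterial genes, 6 of 8 capillary genes and 3 of 8 venous genes higher and 0 lower in each, with median log2 fold changes of 0.72, 0.69 and 0.33. Sema3g (0.76 ± 0.13), Unc5b (0.77 ± 0.21) and Gja4 (0.68 ± 0.20) were first of the arterial list, Mfsd2a, Slc16a1 (0.67 ± 0.14) and Slc7a5 (0.79 ± 0.18) of the capillary list, and Ephb4 (0.76 ± 0.15), Vcam1 and Icam1 (0.63 ± 0.17) of the venous list. The capillary list holds Itm2a, one of the 40. A difference between segments was not tested. Of 5 lymphatic genes tested 1, Flt4, was called higher, and Prox1 and Lyve1, which define that endothelium, had -0.50 ± 0.18 and 2.02 ± 1.06, without a call.

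Markers of other cells did not all go with the 40 genes, and the medians of the neuronal, blood cell and platelet lists were negative. Of 11 pericyte genes DESeq2 called 8 higher and 0 lower, with a median log2 fold change of 0.90, led by Rgs5 (0.91 ± 0.13), Vtn (1.26 ± 0.17) and Abcc9 (1.91 ± 0.29). Their summed level ranged from 476.9 to 661.9 CPM in cre+ and from 286.2 to 332.1 CPM in cre- libraries, with no overlap. Of 9 meningeal fibroblast genes 4 were called higher (Bgn 1.05 ± 0.20, Col1a2 1.53 ± 0.44, Dcn 1.06 ± 0.34), with 502.3 to 994.5 CPM against 301.0 to 453.4 CPM in sum. Of 7 smooth muscle genes 0 were called, with a median of 0.28 and sums of 315.6 to 448.0 CPM against 231.9 to 452.0 CPM.

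Of 11 neuronal genes DESeq2 called 0 higher and 5 lower, all 11 had negative values, and the median log2 fold change was -0.83, with Nefh (-0.87 ± 0.16), Elavl3 (-0.56 ± 0.17) and Elavl4 (-0.53 ± 0.17) first. Their sum was 960.5, 1638 and 1971 CPM (cre+) against 3264, 2322, 2474 and 1866 CPM (cre-). Cre+ replicate 1, the highest library for the 40 endothelial genes, was the lowest of all for these neuronal genes. Cre- replicate 4, the highest cre- library for the 40 genes, was the lowest cre- library for the neuronal genes. But cre+ replicate 3 was above cre- replicate 4 in both, at 1971 against 1866 CPM and 29196 against 27016 CPM. By sum, cre+ replicate 1 was also the lowest cre+ library for meningeal fibroblast, astrocyte, oligodendrocyte, microglia and choroid plexus genes. For pericyte, smooth muscle, blood cell and platelet genes it was not. Astrocyte genes had 3 of 7 called higher (sums of 348.4 to 544.0 CPM against 182.9 to 387.5 CPM) with Aldh1l1 (0.84 ± 0.20), Gja1 (0.77 ± 0.22) and Gfap (1.35 ± 0.43), and oligodendrocyte genes 2 of 8 (758.7 to 2155 CPM against 736.1 to 1525 CPM), Mobp (1.38 ± 0.26) and Mbp (0.98 ± 0.32).

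Microglia, choroid plexus, blood cell and platelet lists had 0 called by DESeq2 in either direction. Their medians were 0.45 over 8 genes, 0.77 over 6, -0.39 over 8 and -0.41 over 6, and their sums overlapped between genotypes, with 725.2 to 1132 CPM in cre+ and 182.5 to 1692 CPM in cre- libraries for microglia, 6109 to 19496 and 3840 to 9206 CPM for choroid plexus, 6947 to 36632 and 14075 to 58916 CPM for blood cells and 17.6 to 20.7 and 19.9 to 30.9 CPM for platelets. No list had all its genes at 0. edgeR called 0 genes of any of these lists, and its lowest adjusted p was 0.0939. The part of these other cells, and of the lower neuronal level, in the values of the 40 genes was not tested.

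**Figure D5:**
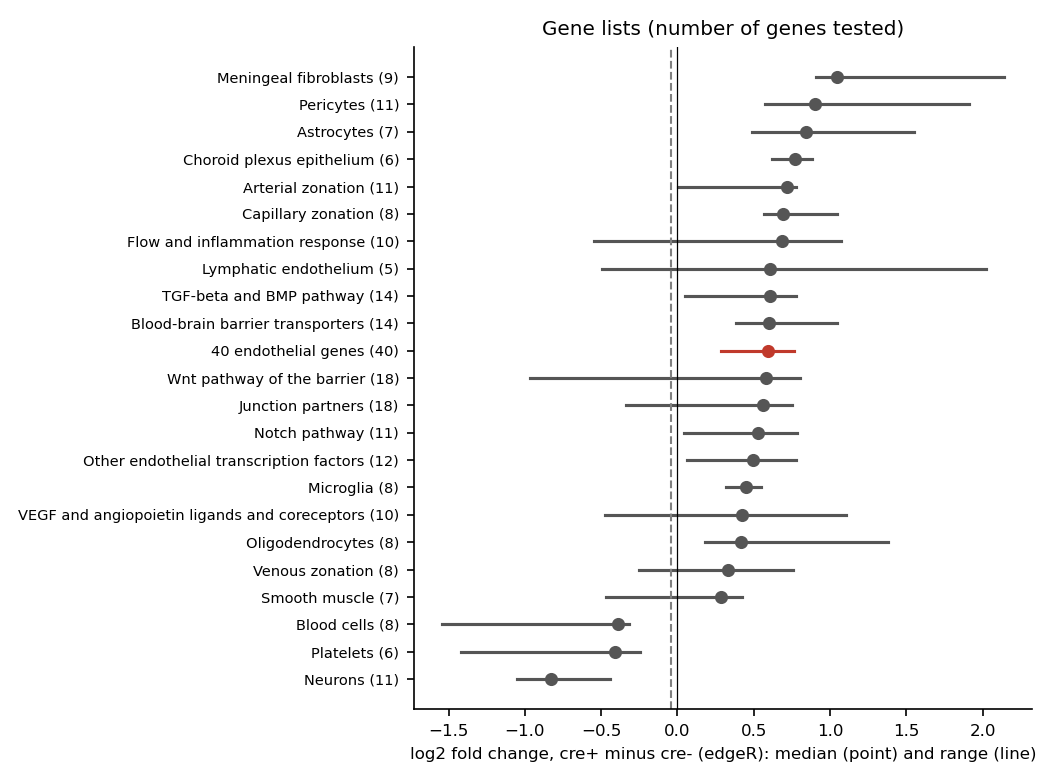
Log2 fold changes by gene list. Points are medians and lines are ranges of the log2 fold change of cre+ over cre- libraries from edgeR (horizontal axis), with the number of genes tested in parentheses, and the dashed line is the median of all genes tested. The 40 endothelial genes are in red with a median of 0.59, pericytes (0.90) and meningeal fibroblasts (1.05) lie above them and neurons (-0.83) lie below 0.

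The plot of gene lists places the 40 genes among the other lists. The range of the 40 is the narrowest of the lists with over 10 genes tested, and the whole of it lies above 0.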

How the data were processed

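RNA was sequenced from isolated neurons of 3 cre+ and 4 cre- mice. The methods of the study and the submitters' processing notes state that reads were trimmed with fastp, checked with FastQC, aligned with STAR to GRCm39, filtered with SAMtools and counted with StringTie. Tool versions, the annotation release and whether counting used strand were not given in the sources used here. Raw counts per gene, as the authors deposited them, were used, and a deposited normalized signal was not. Of 46382 entries per library 49 repeats were dropped. Of 35506 Ensembl identifiers 99.4% were found in GENCODE M39, and 10827 genes had none. Each column header holds a letter code, and cre+ and cre- columns have no code letters in common. A batch marked by these codes, if any, and the genotype cannot be told apart.

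Counts were tested with the edgeR 4.0.16 quasi-likelihood F-test in R 4.3.3 (genotype alone, TMM factors, filterByExpr, robust), and p-values were adjusted by Benjamini-Hochberg over 21542 genes with a threshold of 0.05. DESeq2 1.42.0 on 29539 genes with at least 1 count, at the same threshold, and limma 3.58.1 (voom) were alternatives. CPM are counts scaled to TMM-adjusted library size by edgeR, log2 fold changes are cre+ minus cre- with standard errors (SE), and CPM per kb divide by the union of exons. GC content and length are those of the canonical transcript in GENCODE M39, and promoters were read with pysam 0.24.0. Ratios between single libraries used a pseudocount of 0.1 CPM. The fits were tested on simulated data.

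The 40 genes and all gene lists were chosen with earlier results of these data known. All 40 are named, with values per library for Cldn5, Pecam1, Cdh5, Flt1, Kdr and the 2 smallest p-values in each group. Of each other list up to 3 genes with the smallest p were named, with Il4ra. Genes outside this rule are marked. Replicate numbers are those of the labels. Same-numbered libraries of the genotypes did not deviate together, with correlations of -0.03, -0.004 and 0.09, so the numbers were not used to pair them. The littermates are separate animals, so p-values measure the spread between animals together with that of their cell isolation and library preparation.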

Additional observations from a re-analysis of the deposited data

Results flagged for a closer look

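Cre- replicate 4 stood apart from the other cre- libraries for 9 of the 40 genes, with a gap to the nearest library above Dixon's critical value for 4 samples. Of the junction genes these were Tjp1 (400.3 CPM, where the other cre- libraries had 291.8 to 298.5) and Esam (447.1 CPM, others 327.4 to 329.3). Ptprb was at 1046 CPM (others 714 to 734). Of the transcription factors Epas1 was at 1465 CPM (others 1056 to 1116), Lef1 at 198.5 CPM (others 137 to 146) and Foxq1 at 158.6 CPM (others 124 to 129). Of the surface proteins Itm2a was at 1347 CPM (others 864 to 908), Ly6a at 577.1 CPM (others 391 to 422) and Cd34 at 428.4 CPM (others 306 to 324). Chance alone marks about 1 in 20 groups in this way, and the 9 genes share the library, so they are not 9 separate cases. The rule was run on the 40 genes alone, so the share of all genes that it marks is not known. Groups of 3 were not examined, which leaves out the cre+ libraries. For 4 of these genes, Tjp1, Ptprb, Epas1 and Itm2a, the lowest cre+ library was still above cre- replicate 4.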

How the results depend on the processing

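edgeR called 0 of the 40 genes in every setting, and limma-voom called 0. The DESeq2 count of the 40 genes called higher was 23 with all libraries, 18 without independent filtering, 24 after filterByExpr and 23 with TMM factors. It was 27 without cre+ replicate 1 and cre- replicate 4 together, added after the data were seen. In the same order, calls higher over all genes numbered 1095, 822, 1143, 1088 and 948. Leaving out 1 library gave a count of 6 to 30 of the 40 genes. It was 6 without cre+ replicate 1 or cre- replicate 2, 8 with cre- replicate 3 left out and 13 with cre- replicate 1 left out, where calls higher over all genes, 1095 with all libraries, numbered 591, 407, 545 and 935. Without cre+ replicate 2 or 3 it was 23 and 20, with 645 and 940 over all genes, and without cre- replicate 4 it was 30, with 1163. Calls lower among the 40 genes were 0 throughout. The median log2 fold change of the 40 genes was 0.59, ran from 0.47 with library totals, which move the median of all genes from -0.04 to -0.16, to 0.60 over the other scalings, filters and tools, and from 0.38 to 0.71 with 1 library left out. With the replicate number as a block it was 0.68, and DESeq2 called 27 of the 40 genes higher and 765 over all genes. Not every library correlated best with its own number, and no call of edgeR changed. Of the single genes 3 changed sign, without cre+ replicate 1: Cldn5 (-0.12), Sox17 (-0.029) and Sox18 (-0.16), whose highest values with another library left out were 0.61, 0.53 and 0.68. The cause was not tested. All other directions held in every setting run on single genes. With 7 libraries a log2 fold change of the size seen here has an SE of 0.14 to 0.32, which limits the calls.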
